A study of Rattus norvegicus with 18 samples.

Results

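Osteopontin (Spp1), clusterin (Clu), galectin-1 (Lgals1), galectin-3 (Lgals3) and the surface glycoprotein CD24 (Cd24) were followed in rat kidneys weeks after an ischemic injury. They are 5 of the 1483 genes named on a spotted cDNA array of 2304 clones. The clones were found by gene symbol, the 5 genes having been chosen with earlier results of these data known, and each was present as 1 clone spotted 2 times (Entrez gene 25353 for Spp1, 24854 for Clu, 56646 for Lgals1, 83781 for Lgals3 and 25145 for Cd24). RNA of the whole kidney came from 6 sham-operated rats and from 6 rats that had undergone 52 min of ischemia with reperfusion and 35 days of recovery, called ARF rats after acute renal failure. An ARF rat and a sham rat made up each of 6 pairs, named A to F, and every pair was read on 2 two-colour arrays with exchanged dyes, and 6 more arrays, R1 to R6, set sham rats against each other. The labels name no strain, sex, age or time of sham sampling.

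All 5 genes are used as signs of a damaged or repairing tubule. Osteopontin is a secreted phosphoprotein that binds integrins and CD44 and attracts macrophages, and clusterin is a secreted chaperone that binds misfolded proteins and cell debris. Galectin-1 and galectin-3 bind beta-galactosides on cell surfaces and matrix. Galectin-3 is also a product of macrophages, and galectin-1 of fibroblasts and smooth muscle. CD24 is a small mucin-like protein anchored in the membrane of immature and regenerating epithelium. In whole-kidney RNA, a change in the number of cells that express a gene and a change in the RNA per cell cannot be told apart.

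Values are log ratios averaged over the 2 spots of a clone and then over the 2 arrays of a pair. Where only 1 spot had a value on an array, that spot was used. No source used here gives the base of the logarithm: a difference of 1 unit is 2-fold in base 2, 2.72-fold in natural logs and 10-fold in base 10. The direction is not given either. Positive values were read as higher in ARF, and the opposite convention would turn every sign together while leaving the differences between pairs the same in size. Of 4608 spots, 1586 to 2786 had a value on an array of ARF against sham. Of 19 genes on the array from lists of proximal, loop and distal tubule markers, 18 had values on both arrays in at least 4 pairs, against 41.1% of all clones.

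Upstream sequences are shown for Spp1 and Cd24, the genes of the 5 with an entry in the promoter table used here. They are the 250 bases before the start that this table takes from RefSeq (GRCr8), 5′ to 3′ in the direction of the gene, at chr14:5619805-5620054 on the minus strand for Spp1 and at chr20:48656227-48656476 on the plus strand for Cd24. The RefSeq records of both genes reach further upstream, so the windows lie before 1 annotated start and not before the whole gene. Capitals mark matches, on either strand, to any of 5 short motifs. The TATA box was searched as TATAAA, the site of the AP-1 factors as TGANTCA, and the CCAAT box by those letters. The site of the Sp1 family was searched as GGGCGG, and that of the Runx factors as AACCNCA.
Spp1: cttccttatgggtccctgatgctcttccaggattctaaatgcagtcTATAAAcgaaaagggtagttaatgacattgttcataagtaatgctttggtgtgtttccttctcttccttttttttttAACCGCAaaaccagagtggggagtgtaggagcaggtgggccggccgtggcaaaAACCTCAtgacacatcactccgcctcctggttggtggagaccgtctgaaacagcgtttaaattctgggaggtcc
Cd24: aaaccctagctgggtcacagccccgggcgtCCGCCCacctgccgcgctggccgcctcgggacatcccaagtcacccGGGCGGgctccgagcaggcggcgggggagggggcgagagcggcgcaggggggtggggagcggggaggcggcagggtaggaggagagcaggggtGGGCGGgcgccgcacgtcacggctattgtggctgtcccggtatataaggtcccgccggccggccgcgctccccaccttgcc
The Spp1 window held the TATAAA letters 204 to 199 bases before the start, and 12.9% of 33469 such windows hold them anywhere. It also held AACCNCA at 2 places, a motif found in 12.9% of windows. The Cd24 window held GGGCGG at 3 places, counting both strands, and 30.5% of all windows hold it. TGANTCA, found in 6.34% of windows, and CCAAT, found in 34%, were in neither. The GC content was 46.8% for Spp1 and 75.6% for Cd24, with a median of 51.2% over all windows. No motif of the 5 had an exact match in both sequences. Variants of a motif were not counted, such as tatataag near the end of the Cd24 window.

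The first question was whether these genes still differed between ARF and sham kidneys after 35 days. The mean log ratio was above 0 for all 5 genes, largest for Lgals3 (0.47 ± 0.58, SD, n = 5 pairs) and smallest for Cd24 (0.12 ± 0.36, n = 6). No gene passed the threshold in either direction, and for each of them the SD over pairs was larger than the mean. Spp1 and Clu went from clearly positive in some pairs to clearly negative in pair C.

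Spp1 had the widest range. Its pair values were 1.15 in A, 0.23 in B, -1.14 in C, 0.026 in D, 0.49 in E and 0.58 in F. Thus 5 of 6 pairs lay above 0, pair D barely so, and pair C lay as far below 0 as pair A lay above it. Both dye orientations gave the extremes: pair A read 1.27 and 1.02 with sham in Cy3 and in Cy5, and pair C read -1.07 and -1.22. In pair D the sign turned with the dye, from 0.16 to -0.11. The mean was 0.22 ± 0.77 (limma adjusted p = 0.65; two-sided exact sign-flip permutation p = 0.469, where 6 pairs allow no p below 0.0313).

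Clu followed the same order of pairs on a smaller scale, with 0.84 in A, 0.16 in B, -0.69 in C, -0.038 in D, 0.34 in E and 0.64 in F. Pairs C and D were below 0 and the other 4 above. The arrays with sham in Cy3 gave the higher value in 5 of the 6 pairs, for example 1.14 against 0.54 in pair A and -0.47 against -0.90 in pair C. Its mean was 0.21 ± 0.54 (limma adjusted p = 0.56; two-sided exact permutation p = 0.375).

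Lgals3 had 0.79 in A, 0.64 in B, -0.52 in C, 0.48 in E and 0.98 in F. In pair D only the array with sham in Cy3 had a value, 0.072, and the pair was left out of the mean. So 4 of the 5 complete pairs were above 0 by about 0.5 or more, and pair C was below it by a similar amount. The mean of 0.47 ± 0.58 had an adjusted p of 0.27 in limma and a two-sided exact permutation p of 0.188 (smallest possible 0.0625). Without pair C the mean was 0.72 (n = 4) and passed (limma adjusted p = 0.012), where 2.13% of all clones passed. Leaving out the only complete pair below 0 raises the mean by itself, so passing there adds no support. The second spot alone, which has no complete value in pair C, gave 0.72 over the same 4 pairs (limma adjusted p = 0.010), where 1.78% of clones passed.

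Lgals1 had its lowest value in another pair. Its pair values were 0.26 in A, 0.54 in B, -0.33 in D, 0.38 in E and 0.51 in F, so that pair D, not pair C, was the only complete pair below 0. Pair D rested on 1 spot on each array, -0.14 with sham in Cy3 and -0.52 with sham in Cy5. Pair C had a value on its first array alone, 0.0077, the mean of spots at -0.10 and 0.12. The mean was 0.27 ± 0.35 (n = 5, limma adjusted p = 0.34; two-sided exact permutation p = 0.188). Without pair D the mean was 0.42 (n = 4) and passed (limma adjusted p = 0.036), where 1.96% of all clones passed. Here too the pair left out was the only complete one below 0, so passing adds no support. Lgals1 also had the largest dye effect of the 5, taken as the difference between both arrays of a pair divided by 2: 0.17 ± 0.073 (n = 5), with the array with sham in Cy3 higher in 5 of 5 pairs. With only sham in Cy3 its mean was 0.37 (n = 6), and with only sham in Cy5 0.10 (n = 5).

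Cd24 had 0.57 in A, 0.20 in B, -0.30 in C, -0.23 in D, 0.012 in E and 0.46 in F. Here pairs C and D were both below 0 and pair E was close to 0. The 2 arrays of pairs C, D, E and F differed by less than 0.1, while those of pair A gave 0.75 and 0.39. Its mean was 0.12 ± 0.36 (n = 6, limma adjusted p = 0.64; two-sided exact permutation p = 0.469).

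**Figure D1:**
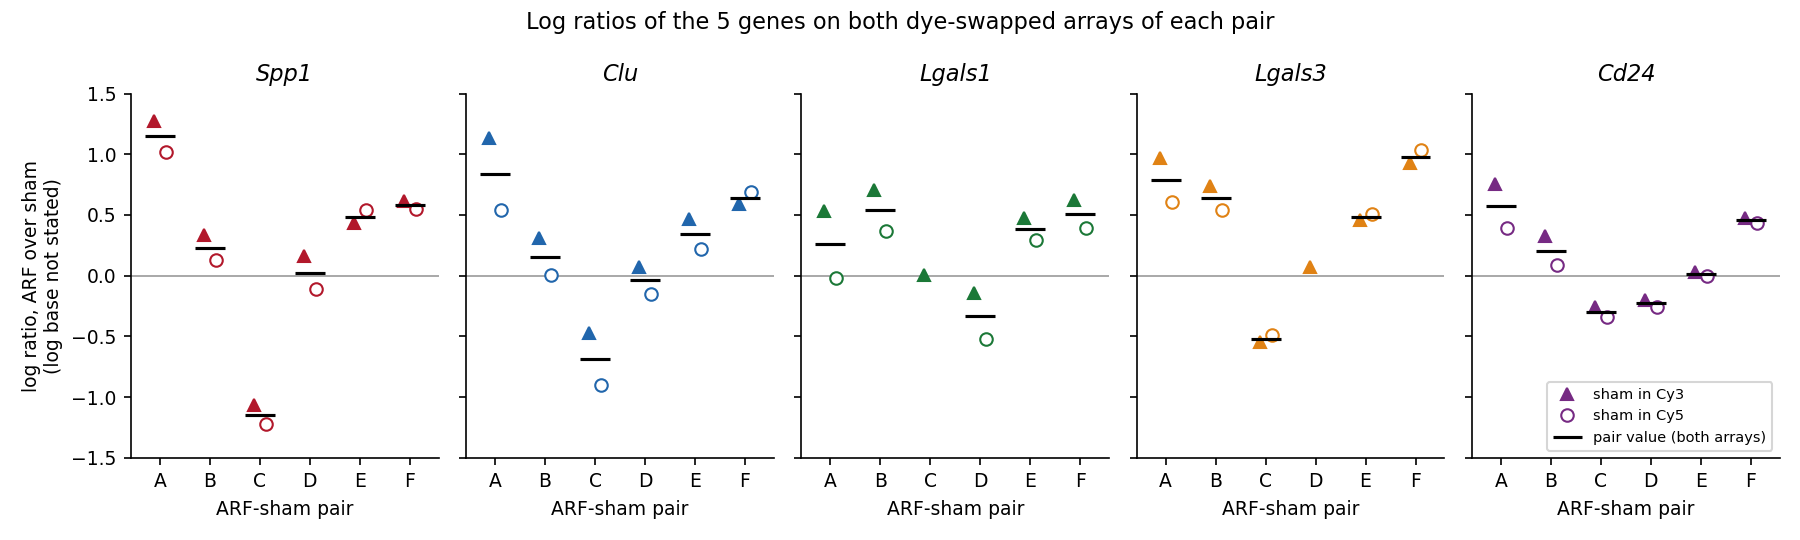
Log ratio (vertical axis, ARF over sham, log base not stated) of each gene in pairs A to F (horizontal axis). Filled triangles are arrays with sham in Cy3, open circles arrays with sham in Cy5, each the mean of the spots with a value, and black lines are the pair values; Spp1 spans -1.14 in pair C to 1.15 in pair A, and pair C is the lowest pair for Spp1, Clu, Lgals3 and Cd24.

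Of the 5 genes, 0 passed the threshold, and 0.95% of the 947 tested clones did (limma, Benjamini-Hochberg adjusted p under 0.05), 0.317% as higher and 0.634% as lower in ARF. At an unadjusted p under 0.05 there were 2 of 5, Lgals1 and Lgals3, against 14.7% of all clones. An unmoderated test also passed 0 of 5, with 0 at an unadjusted p under 0.05, and limma with trend and robust options passed 0, with 1. Without pair C, Spp1 averaged 0.49 and Clu 0.39 (each n = 5, limma adjusted p = 0.092 and 0.12). Without pair A the mean was 0.036 for Spp1, 0.083 for Clu and 0.029 for Cd24.

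The second question was whether the pairs themselves differed by more than the arrays could err. Because both arrays of a pair carry identical RNAs, their disagreement, once the dye is allowed for, measures the array error. For Spp1 this residual SD was 0.10 and the SD over pairs 0.77. The limma F test of differences between pairs gave F = 83.7 for Spp1 (adjusted p = 4.87e-06), 27.0 for Clu (adjusted p = 0.000359) and 18.5 for Cd24 (adjusted p = 0.00121). All 3 genes measured on all 12 arrays passed. So did 35.7% of the 600 clones that could be tested in this way, so passing alone is common on these arrays. By F, Spp1 stood at rank 2 of 600, Clu at 10 and Cd24 at 21. This test concerns rats, not ARF against sham.

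Lgals3 and Lgals1 lacked 1 array each and were tested without the incomplete pair. Lgals3 without pair D had F = 35.0 (adjusted p = 0.0006), where 15.5% of clones passed. Lgals1 without pair C had F = 17.2 (adjusted p = 0.00786), where 19.5% passed. By the SD over pairs among the 947 tested clones, whose median was 0.17, Spp1 stood at rank 3 with 0.77, Lgals3 at 7 with 0.58, Clu at 10 with 0.54, Cd24 at 57 with 0.36 and Lgals1 at 58 with 0.35. The 95th percentile of this SD over clones was 0.37, so Cd24 and Lgals1 lay just below it and the other 3 above.

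**Figure D2:**
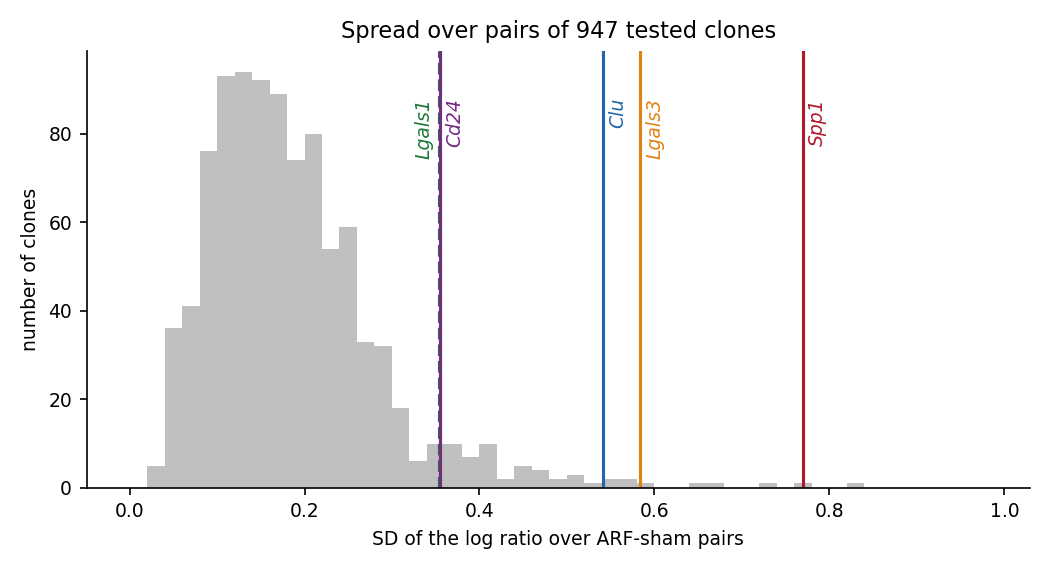
Number of clones (vertical axis) by the SD of their log ratio over ARF-sham pairs (horizontal axis), for the 947 tested clones in grey, with the 5 genes as coloured lines. Spp1 at 0.77, Lgals3 at 0.58 and Clu at 0.54 lie in the far right tail, and Lgals1 and Cd24, at 0.35 and 0.36, at its start.

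The third question was whether the genes moved together from pair to pair. Spp1 and Clu ordered the 6 pairs identically, A, F, E, B, D, C from high to low, with Pearson r = 0.98 (two-sided exact permutation p = 0.00139, the smallest that 720 orders allow; adjusted over the 3 relations 0.00417) and Spearman rho = 1.0 (p = 0.00278; adjusted 0.00833). Without pairs A and C, the farthest from the median, r was 0.96 over the other 4 pairs. Clu and Cd24 had r = 0.91 (two-sided exact permutation p = 0.00833, adjusted 0.0111) and rho = 0.94 (p = 0.0167, adjusted 0.0167), and r = 0.86 without A and C. For Spp1 and Cd24 r was 0.84 (two-sided exact permutation p = 0.0111, adjusted 0.0111) and rho 0.94 (p = 0.0167, adjusted 0.0167), with r = 0.75 without those pairs. The genes share arrays and rats, so their values are not independent. Since the deposited values are centred on each array's mean, a shift common to all clones is already removed. A shift shared by only part of the clones would enter both sides, and its part was not tested.

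Lgals3 and Lgals1 reach 6 pairs only when pairs with 1 array are kept, a setting added after the values were seen, in which 10 relations were computed. There Lgals3 had r = 0.94 with Clu (two-sided exact permutation p = 0.00694, adjusted 0.0208), with rho = 0.89 (p = 0.0333, adjusted 0.0556). With Spp1 it had r = 0.91 (two-sided exact permutation p = 0.0153, adjusted 0.0255) and rho = 0.89 (p = 0.0333, adjusted 0.0556). With Cd24 it had r = 0.90 (two-sided exact permutation p = 0.00833, adjusted 0.0208) and rho = 0.94 (p = 0.0167, adjusted 0.0417). Leaving out the 2 pairs farthest from the median kept these 3 r between 0.82 and 0.89. Lgals1 passed with none of the other 4: its r ran from 0.45 with Spp1 to 0.71 with Lgals3 (two-sided exact permutation, adjusted p = 0.371 and 0.155). Its r with Cd24 went from 0.68 to -0.32 without pairs C and D, and with Lgals3 to 0.13. Without pairs A and C, its r rose from 0.45 to 0.76 with Spp1 and from 0.53 to 0.71 with Clu.

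**Figure D3:**
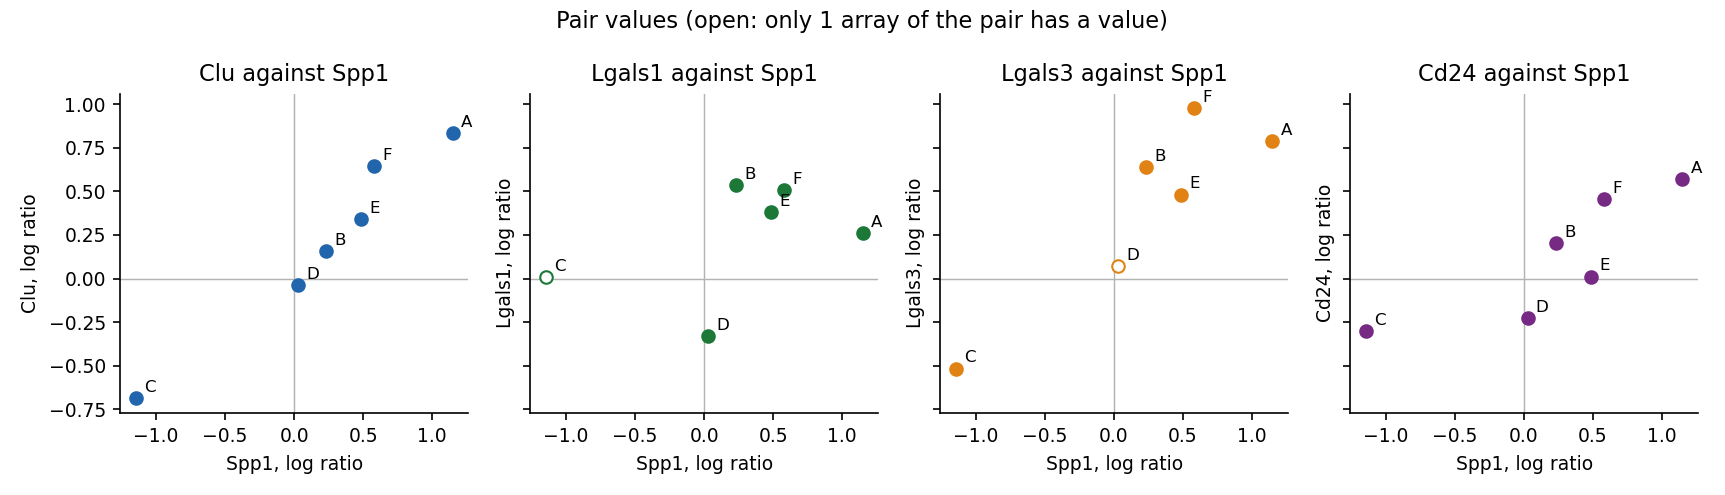
Pair values of Clu, Lgals1, Lgals3 and Cd24 (vertical axes) against those of Spp1 (horizontal axes), in log ratio units, 1 point per pair with its letter; open points rest on 1 array. Clu rises with Spp1 through all 6 pairs, while Lgals1 has its lowest value, -0.33, in pair D (1 spot on each array) and is at 0.0077 in pair C.

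Within a pair, the genes could also be set against one another, since each pair of genes was read on the same arrays. None of the 10 differences passed (two-sided exact sign-flip permutation, adjusted over the 10). Lgals3 was above Lgals1 in 4 of 4 complete pairs, with means of 0.72 and 0.42 and a difference of 0.30 ± 0.23 (exact permutation p = 0.125, the smallest that 4 pairs allow; adjusted 0.417). Lgals3 was above Clu in 4 of 5 pairs, by 0.22 ± 0.20 (exact permutation p = 0.125, adjusted 0.417). It was above Cd24 in 4 of 5 pairs, by 0.29 ± 0.30 (exact permutation p = 0.125, adjusted 0.417). Spp1 and Clu had the closest means, 0.22 and 0.21, with a difference of 0.013 ± 0.26 (n = 6, exact permutation p = 0.844, adjusted 0.844). That difference was 0.31 in pair A and -0.46 in pair C, where Spp1 lay farther from 0 on both sides.

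The sham-sham arrays show how far single readings of these genes spread without ischemia, with array error included. Spp1 read 0.52 on R1 (sham F over sham A), 0.18 on R2 (E over A), -0.13 on R3 (F over B), 0.39 on R4 (D over B), 0.20 on R5 (F over C) and 0.22 on R6 (E over D). In size, its largest value there was thus under that of pairs A, C and F, and above that of pairs B, D and E. The comparison is uneven, since a pair value is a mean of 2 arrays with exchanged dyes. Clu stayed between -0.078 and 0.30, Cd24 between -0.34 and 0.077, and Lgals3 between -0.51 on R2 and 0.25 on R6. Lgals1 had values on 3 arrays, from 0.077 to 0.34. The sign of a reading depends on which sham rat was in channel 2. No 2 sham rats were read with exchanged dyes, so dye effects and array error also enter these values.

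These arrays link pairs, so the difference between 2 ARF rats can be computed as the difference of their pair values plus that of their sham rats. Pair C and pair F are linked by R5. Spp1 was 1.73 higher in pair F than in pair C, while sham F read only 0.20 above sham C, and the ARF rats then differed by 1.93. Turning the sign of the sham array would make it 1.52. Clu gave 1.33 between the pairs, 0.11 between the sham rats and 1.44 between the ARF rats, and Lgals3 gave 0.11 (from 1 spot) between the sham rats and 1.61 between the ARF rats. For these 3 genes sham C and sham F thus read 0.20 or less apart on R5, whichever sign the array has. This is a reading of a single array and sets no bound. Its spots gave 0.31 and 0.10 for Spp1 and 0.29 and -0.071 for Clu. Cd24 differed by 0.76 between the pairs and by -0.34 between the sham rats, which left 0.42.

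Pairs A and F, linked by R1, gave another picture. Spp1 was 0.57 higher in pair A than in pair F, but sham F read 0.52 above sham A, and the computed difference of the ARF rats (F less A) was -0.047. This value rests on the assumed sign and would be -1.09 with the sham array turned. Over clones, the sham-sham value correlated below 0 with the difference of the linked pair values on 5 of 6 arrays (r from -0.213 to -0.107; 0.034 on R6, over 378 to 934 clones), the sign that 1 common direction gives, since a higher sham rat lowers its pair. Single sham arrays are imprecise for Spp1: the 5 arrays R1, R3, R4, R6 and R2 form a closed loop whose sum would be 0 without error, and it was 1.08 for Spp1, 0.67 for Clu, 0.56 for Lgals3 and 0.27 for Cd24, against a median size of 0.29 over all clones measured on the loop. If the 5 arrays erred independently and by equal amounts, 1.08 corresponds to 0.48 an array (the sum divided by the square root of 5). This figure rests on 1 sum and concerns sham-sham arrays, not pair values. It is close to the 0.52 that Spp1 read on R1. The Spp1 sum of 1.08 was above the 90th percentile of size over all clones on the loop, 0.81. The array R5, which links C and F, is not part of this loop.

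**Figure D4:**
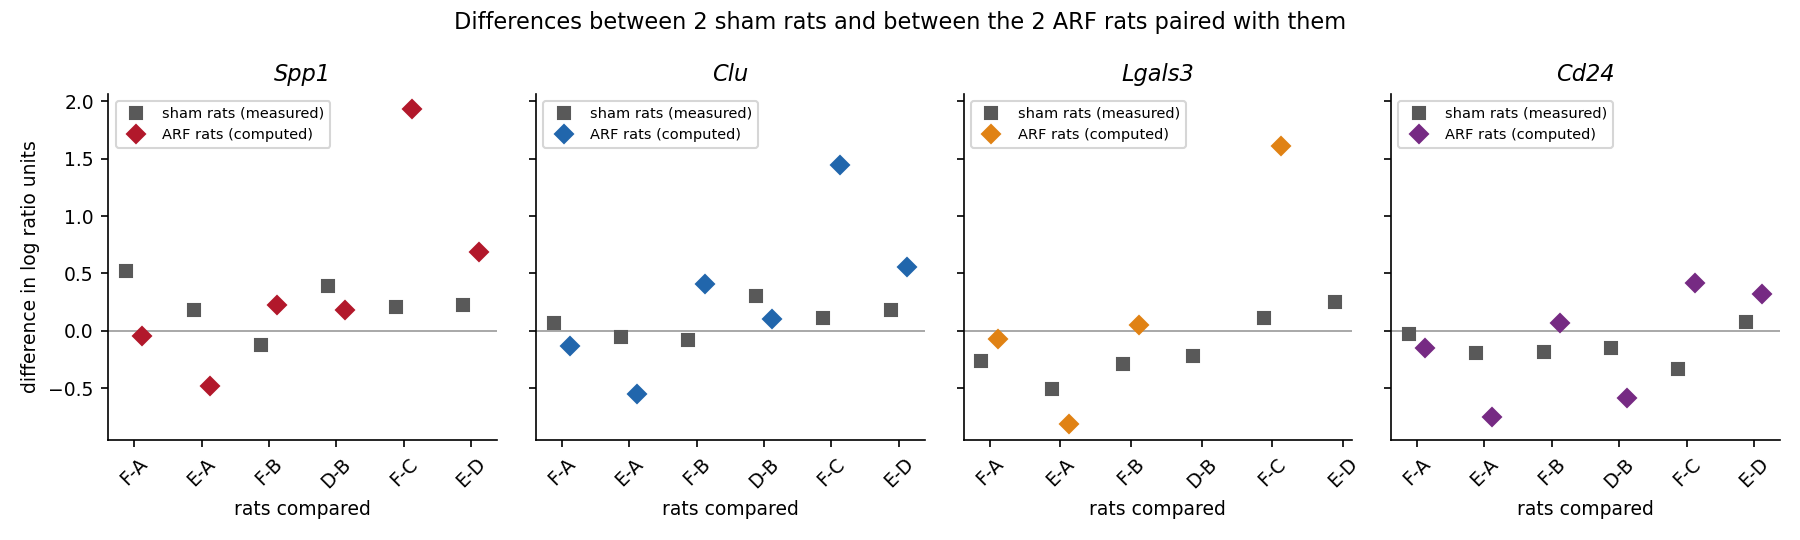
Differences in log ratio units (vertical axis) between 2 sham rats, as read on arrays R1 to R6 after the exchange of row blocks (grey squares), and between the ARF rats of the same 2 pairs (coloured diamonds, computed), with the rats named on the horizontal axis (F-A is rat F less rat A). The ARF difference F-C stands out at 1.93 for Spp1, 1.44 for Clu and 1.61 for Lgals3, with sham differences of 0.20, 0.11 and 0.11.

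Other genes of the same roles were taken from marker lists without the 5 genes. Of 21 further injury and repair genes, 13 were on the array and 10 were tested. Of these 10, 1 passed as higher and 0 as lower, against 0.317% and 0.634% of all tested clones. Means above 0 were found for 9 of 10, and the median of the means was 0.27, against 0.015 over all tested clones. The gene that passed was S100a4, a calcium-binding protein (0.70 ± 0.23, n = 4, pairs A, C, E and F, limma adjusted p = 0.028). The metalloproteinase inhibitor Timp1 had 0.43 ± 0.23 (n = 4, pairs A, B, E and F, limma adjusted p = 0.085). Tmsb10, an actin-binding thymosin, had 0.45 ± 0.47 (n = 6, adjusted p = 0.17), and Igfbp3, which binds insulin-like growth factors, had 0.27 ± 0.27 (n = 5, adjusted p = 0.23). Of this list, 5 genes had all 6 pairs. The pairs differed by the limma F test in 5 of 5, against 35.7% of 600 clones. The median of these 5 genes ran 0.69, 0.16, -0.39, 0.17, 0.43 and 0.56 from pair A to F, so it was below 0 in pair C only. Of the listed genes with pairs missing, S100a4, Igfbp3 and Cd44 had a value in pair C. S100a4 read 0.36 there, its lowest pair, and Igfbp3 0.69, its highest, while Cd44 read -0.20.

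Receptors and partners of these proteins had means close to 0, with a median of -0.031. Of 20 genes, 7 were on the array and 5 were tested, and 0 passed in either direction, against 0.95% of all tested clones. Itgb1, the integrin beta 1 chain, had 0.069 ± 0.15 (n = 4), the osteopontin receptor Cd44 -0.030 ± 0.21 (n = 5), Lrp2 (megalin), which takes up clusterin, -0.055 ± 0.16 (n = 6), and the galectin-binding lysosomal proteins Lamp1 and Lamp2 -0.031 ± 0.10 (n = 6) and -0.065 ± 0.25 (n = 5). The limma adjusted p-values were 0.69 to 0.86. Of the other galectins, Lgals7 and Lgals9 were on the array and had too few values to be tested.

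Markers of other cells are given beside these results, since macrophages and fibroblasts also make osteopontin and galectins. Of 24 macrophage and antigen presentation genes, 10 were on the array and 4 were tested. Of these, 0 passed, against 0.95% of all tested clones. Of the means, 4 of 4 were above 0, with a median of 0.21, against 0.015 over all tested clones. The tested genes were RT1-Ba, RT1-Db1, Apoe and Ctsb, and other listed genes, such as Cd68 and Csf1r, were not tested. By pair, the median of the 4 tested genes was 0.33, -0.013, 0.20, 0.12, -0.031 and 0.49 from A to F. It was above 0 in pair C, where Spp1, Clu, Lgals3 and Cd24 were below 0. The 3 fibroblast and matrix genes with all pairs had medians of 0.49, 0.069, -0.033, -0.079, 0.30 and 0.31. Of the 9 tested in this list 1 passed, the collagen chain Col1a1 (0.53 ± 0.21, n = 4, limma adjusted p = 0.048), as higher, and 0 as lower. Over all tested clones 0.317% passed as higher and 0.634% as lower. Col1a1 had values in pairs A, B, E and F only, not in C and D, where the medians of the 3 complete genes were below 0. The 7 proximal tubule genes had medians between -0.21 in pair F and 0.055 in pair C, and the 7 loop and distal tubule genes between -0.45 in pair F and -0.16 in pair D. Of the 8 tested loop and distal genes 1 passed as lower and 0 as higher, against 0.634% and 0.317% of all tested clones. The gene that passed was Egf, the epidermal growth factor of the distal tubule (-0.34 ± 0.16, n = 6, limma adjusted p = 0.048). The part of other cell types in the values of the 5 genes was not tested.

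**Figure D5:**
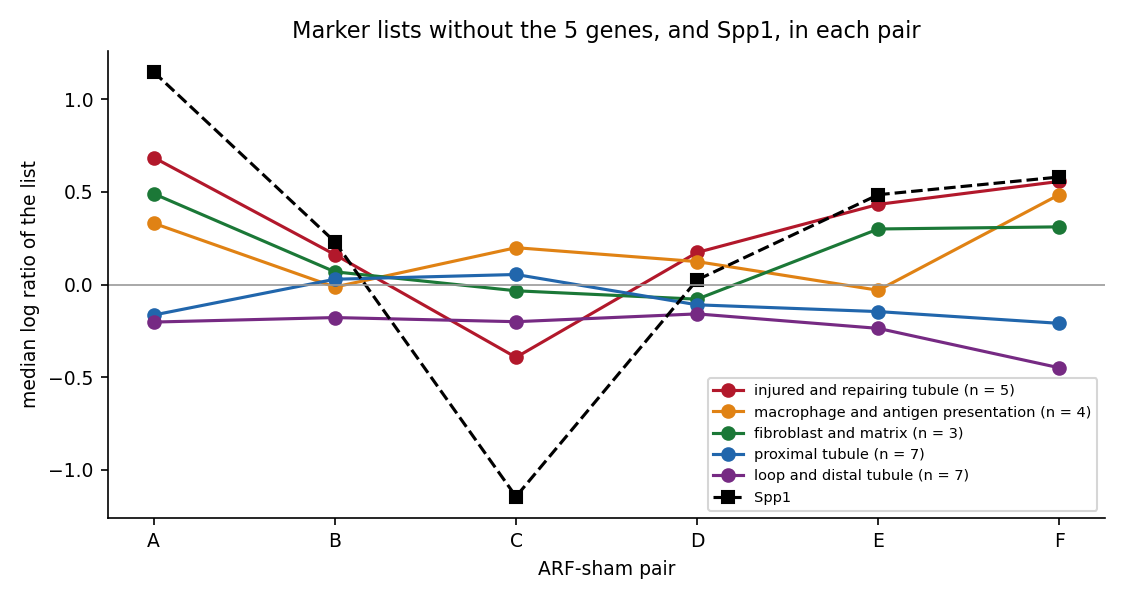
Median log ratio (vertical axis) of 5 marker lists without the 5 genes, and the value of Spp1 (dashed), in pairs A to F (horizontal axis, pairs have no order; lines only join points of 1 list). n is the number of listed genes with values in all 6 pairs; the injury list has 0.69 in A and -0.39 in C, the pairs where Spp1 is highest and lowest, while the macrophage list is at 0.20 in pair C.

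The genes whose pair values ran most like those of Spp1 were found among 417 other named clones with all 6 pairs, by Pearson r over the pairs as a measure of likeness. They were Myl12b, a light chain of non-muscle myosin (r = 0.99), the annexin Anxa4 (0.98), Mgp, the matrix Gla protein that inhibits calcification (0.98), the intermediate filament Vim (0.97) and Serpinh1, a chaperone of collagen (0.96). Mgp and Vim had spreads near that of Clu. Mgp read 1.16, 0.62, -0.40, 0.35, 0.58 and 0.93 in the order A to F (SD 0.54, mean 0.54, limma adjusted p = 0.14). Vim read 0.69, -0.0034, -0.64, 0.17, 0.41 and 0.52 (SD 0.48, mean 0.19, limma adjusted p = 0.54). Myl12b had 0.40 in A and -0.26 in C, and another clone of this gene, measured in 5 pairs without C, read 0.44 in A and -0.073 in D. In all, 15 of the 417 clones had r above 0.9 with Spp1, 17 with Clu and 13 with Cd24.

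Most like Clu were Myl12b and Mgp again (r = 0.99 each), then Tmsb10 (0.98), Pik3r2, a regulatory subunit of phosphoinositide 3-kinase (0.97), and the actin-sequestering thymosin Tmsb4x (0.96). Tmsb10 read 0.91, 0.37, -0.34, 0.31, 0.48 and 0.96 from pair A to F. Cd24 had another set of neighbours: the ribosomal proteins Rpl24 (0.98) and Rpl37l1 (0.96), the sodium pump subunit Atp1b3 (0.96), the interleukin-6 receptor Il6r (0.95) and Tmsb4x (0.94). Il6r read 0.77, 0.11, -0.35, -0.32, 0.12 and 0.32 and was thus low in both C and D, like Cd24.

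The genes at the other end of the ranking were again picked as the extremes of 417 clones by r over 6 values, with no p. Lowest in likeness to Spp1 were Slc25a10, the mitochondrial dicarboxylate carrier (r = -0.99), and Gchfr, the feedback regulator of GTP cyclohydrolase (-0.98). Slc25a10 was -0.29 in pair A and 0.33 in pair C. Opposite to Clu were Spr, sepiapterin reductase (-0.99), and the ubiquitin-conjugating enzyme Cdc34 (-0.98), with Spr at -0.30 in pair A and 0.34 in pair C. Opposite to Cd24 were Alad, an enzyme of heme synthesis (-0.98), and Oplah, 5-oxoprolinase (-0.98). Their range was narrower than that of Spp1, with SDs over pairs between 0.14 and 0.24 for these 6 genes.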

How the data were processed

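RNA of whole rat kidney was read on 18 two-colour cDNA arrays, 12 with ARF against sham rats (6 pairs, dyes exchanged) and 6 with sham rats only. Per the labels, the deposited values are normalized log values from ImaGene 4.1 data, with spot quality, detection and weak signals treated by a cited earlier method. As their values show, the deposited log ratios are centred on each array's mean; their base and direction are not given in the sources used here, and 57.1% of cells are empty. Array medians lay between -0.042 and 0.029. The number of arrays limits the precision.

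Rows 1152 apart hold the same accession (1519 of 1519) and were averaged. Names come from the platform annotation, updated through RefSeq (1483 of 1489 clones with 1 symbol matched). No name is given to the 32 clones with several symbols or the 783 with none, which stayed in the tests. A gene with several clones was represented in the lists by the one with most pairs. On the sham-sham arrays adjacent blocks of 288 rows were exchanged, as the values fall on other rows there (mean correlation of where values were present -0.011 before and 0.488 after); this was chosen after the values were seen.

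Pair values were tested against 0 with limma 3.58.1 in R 4.3.3 (intercept, eBayes) for the 947 clones that had 4 or more pairs complete on both arrays. Adjusted p (Benjamini-Hochberg) under 0.05 was the threshold. Differences between pairs were tested with a limma F test on 12 arrays with a dye term. Rats of 1 pair share only arrays and a letter in the labels. The procedures were tested on simulated data. The genes and lists were chosen with earlier results of these data known. Genes named from a list are those with the smallest adjusted p, at most 4 a list, with Cd44 as an exception. As the fifth of the receptors and partners, Cd44 was added after its value was seen. So were the readings of S100a4, Igfbp3 and Cd44 in pair C and the other Myl12b clone. Genes of like pattern are the 5 highest and 2 lowest by r.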

Additional observations from a re-analysis of the deposited data

How the results depend on the processing

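The means of the 5 genes kept their sign under every alternative run; 93 of these kept the call, and the other 3 passed: Lgals3 without pair C (0.72, limma adjusted p = 0.012) or with the second spot only (0.72, adjusted p = 0.010, where pair C is incomplete), and Lgals1 without pair D (0.42, adjusted p = 0.036). Each of these 3 runs lacks the only complete pair of that gene below 0, so passing in them adds no support. With each pair left out in turn, the mean of Lgals3 ran from 0.35 to 0.72, of Lgals1 from 0.20 to 0.42, of Spp1 from 0.036 to 0.49, of Clu from 0.083 to 0.39 and of Cd24 from 0.029 to 0.20. The number of all clones that passed was 9, and 15 with arrays centred on their medians or with the second spot only, 5 with pairs on 1 array kept, 4 with at least 3 pairs, 28 with only sham in Cy3, 0 with an ordinary test (129 at an unadjusted p under 0.05) or with trend and robust options (119), and 0 to 19 with a pair left out. With the pair as a replicate block on 12 arrays it was 42, with a dye term added 29, and without a pair term (no replicate block), on levels per rat, 2 of 421; no gene of the 5 passed in these fits, and Lgals1 and Lgals3 could not be fitted in the last. Pairs differed by the F test in 214 clones, in 46 without the dye term and in 102 to 293 with a pair left out; Spp1, Clu and Cd24 passed in each. The correlations between them kept their call with either dye orientation. Small differences between genes turned sign: with only sham in Cy3, Spp1 less Clu was -0.059, Spp1 less Lgals1 -0.076 and Clu less Lgals1 -0.016; with only sham in Cy5, Lgals1 less Cd24 was -0.025; with a pair left out, Spp1 less Clu ran from -0.047 to 0.11 and Lgals1 less Cd24 from -0.0077 to 0.16. None of these passed. Signal over background could not be judged, since the table holds ratios alone.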
